A study of Mus musculus with 2 samples.

Results

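The miR-302 and miR-367 cluster is a run of 5 microRNA (miRNA) hairpins, and its members here were the 3p arms mmu-miR-302a-3p, mmu-miR-302b-3p, mmu-miR-302c-3p, mmu-miR-302d-3p and mmu-miR-367-3p (mmu, for mouse, is left out below), 5 of the 1881 mouse miRNAs on the array. The members were chosen by name, with their signals on these arrays already known. The values that define them, detection in MPDC-exosomes and not in KPC-exosomes, are therefore given as a description. Exosomes are small vesicles that cells release. KPC-exosomes came from the culture supernatant of a murine pancreatic cancer cell line derived from tumour tissue of mice carrying KrasLSL-G12D/+, Trp53LSL-R172H/+ and Pdx1-Cre, which was kept with 20% fetal bovine serum. In these mice Cre, driven by the pancreatic Pdx1 promoter, switches on the mutant alleles. MPDC-exosomes, the control, came from a purchased murine pancreatic ductal epithelial cell line kept with 10% fetal bovine serum. From each preparation 0.5 µg of RNA received the dye Cy3 and was hybridized to 1 Agilent mouse miRNA array, and both arrays lay on the same slide. Each group was thus 1 preparation of 1 cell line on 1 array, so no difference below has a replicate check, and precision is limited by the number of arrays. The paper kept KPC cells in RPMI medium and MPDC cells in DMEM, and collected the supernatants in medium with serum cleared of exosomes. The cell line, the medium, the serum and the preparation cannot be told apart.

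A miRNA is a short RNA that pairs with messenger RNAs, mainly through its seed, bases 2 to 8 from the 5′ end, and lowers their translation and stability. The cluster is transcribed as a single precursor and is known as a hallmark of pluripotent cells: it is high in embryonic stem cells, falls as they differentiate, and is used in reprogramming. The miR-302 members carry the same seed letters as miR-291a-3p, miR-294-3p and miR-295-3p, the main miRNAs of mouse embryonic stem cells, whereas miR-367-3p carries the seed of the miR-25 and miR-92 family.

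Mature sequences are shown to make the seed groups visible. RefSeq (GRCm38.p6) gave a mature sequence for 4 of the 5 members, and bases 2 to 8 are in capitals.
miR-302b-3p: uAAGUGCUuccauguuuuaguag
miR-302c-3p: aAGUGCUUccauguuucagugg
miR-302d-3p: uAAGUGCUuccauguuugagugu
miR-291a-3p: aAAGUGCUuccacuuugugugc
miR-294-3p: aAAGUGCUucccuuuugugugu
miR-295-3p: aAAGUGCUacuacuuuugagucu
miR-367-3p: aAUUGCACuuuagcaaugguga
miR-363-3p: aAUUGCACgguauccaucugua
miR-92a-3p: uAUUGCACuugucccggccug
The listed miR-302c-3p starts 1 base later than its relatives, which shifts its capitals by 1 base although the same letters AAGUGCU stand in it.

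The array reads these miRNAs through DNA probes complementary to them, and the miR-302 probes are shown because they are close in sequence. The longest probe of each member follows, 5′ to 3′, with the bases that differ among the miR-302 probes in capitals.
miR-302a-3p: TCacCAaaacatggaagcac
miR-302b-3p: CTacTAaaacatggaagcact
miR-302c-3p: CCacTGaaacatggaagcac
miR-302d-3p: ACacTCaaacatggaagca
miR-367-3p: tcaccattgctaaagtgcaat
Of the 19 positions compared, 15 were identical in the 4 miR-302 probes and 4 differed, all within the first 6 bases, which pair with the 3′ end of the miRNA. Probes of a miR-302 member shared runs of 11 to 15 bases with probes of another member, and runs of 8 to 10 bases with probes of miRNAs outside the cluster. The probes of miR-367-3p shared at most 6 bases with other probes of the cluster. How far a miR-302 signal includes RNA of another member was not tested.

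The 31 probes for both arms of the cluster lay on chromosome 3, at positions 127248161 to 127248718 of mm9 in the files, a stretch of 558 bases. In RefSeq the 5 hairpin genes, in the order Mir302b, Mir302c, Mir302a, Mir302d and Mir367, lie within the span of Larp7, which encodes a protein that binds the 7SK RNA. The cluster is on the plus strand and Larp7 on the minus strand.

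Of the 1881 miRNAs, 772 were detected in KPC-exosomes and 1031 in MPDC-exosomes, where detected means that the total signal of at least 1 probe exceeded 3 times the scanner's error for it. No spot was saturated. Among the 726 miRNAs detected on both arrays, 591 were lower in KPC-exosomes without normalization, with a median log2 difference (KPC-exosomes minus MPDC-exosomes) of -1.37. Quantile normalization, which makes the distribution of signals the same on both arrays and returned the authors' deposited values, moved this median to 0.53. The 4 spike-in controls, RNAs added to each sample in the array protocol, differed by -0.31 to 0.38 on the log2 scale. Since the choice of scale moves all differences, those of the cluster are given with quantile normalization and without normalization, beside the median of all miRNAs.

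All 5 members were detected in MPDC-exosomes and none in KPC-exosomes. Of the 1031 miRNAs detected in MPDC-exosomes, 29.6% were not detected in KPC-exosomes, and of the 394 whose signal in MPDC-exosomes was at least that of the dimmest member, 10.2% were not. The members' state was thus shared by 305 miRNAs in all and by 40 at such signals.

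Of the miR-302 members, which repress regulators of the cell cycle and of differentiation in stem cells, miR-302a-3p gave a summed signal in MPDC-exosomes of 463 ± 41.2 (scanner error, arbitrary units), and its signal over all probes in KPC-exosomes was 0.387 ± 1.31. For miR-302b-3p the signal was 117 ± 9.09 in MPDC-exosomes and -0.00512 ± 0.930 in KPC-exosomes. For miR-302c-3p the signal was 173 ± 13.7 in MPDC-exosomes and 0.0872 ± 1.07 in KPC-exosomes. In KPC-exosomes the signals of all 5 members, these 3 among them, lay within 1 scanner error of 0. For miR-302d-3p the signal was 103 ± 8.23 in MPDC-exosomes and -0.859 ± 1.07 in KPC-exosomes. The member with the other seed, miR-367-3p, gave 953 ± 68.5 in MPDC-exosomes and 0.601 ± 1.32 in KPC-exosomes. These errors describe the reading of each array and not the spread between preparations. In bulk exosome RNA, fewer vesicles carrying a miRNA and less of it per vesicle cannot be told apart.

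**Figure D1:**
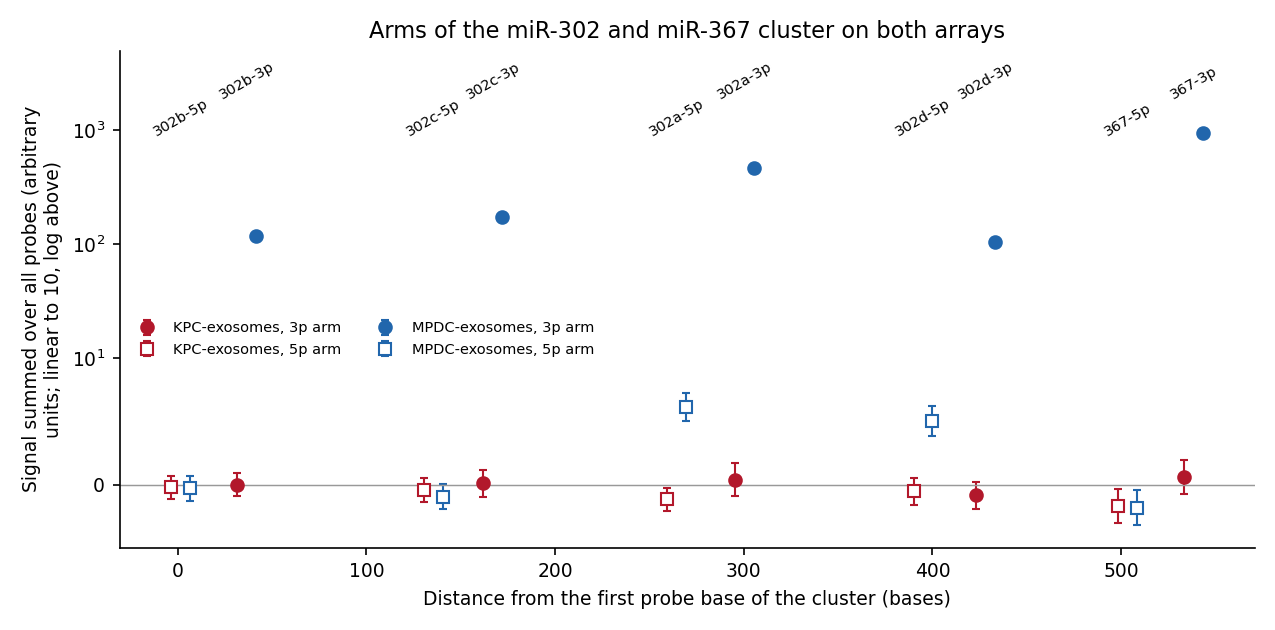
Signals along the cluster. The x axis gives the distance in bases from the first probe base of the cluster and the y axis the signal summed over all probes of an arm (arbitrary units, linear to 10 and log above), with bars of 1 scanner error. In MPDC-exosomes (blue) the 3p arms (filled circles) lie between 105 and 953 and the 5p arms (open squares) between -1.82 and 6.10. Every arm in KPC-exosomes (red) lies near 0.

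Because no member was detected in KPC-exosomes, each difference is taken against a limit for that array. The lower limit, used here throughout unless another is named, is the lowest signal detected on it, 1.41 in arbitrary units, which was higher than every member's own signal there. The higher limit, 3 scanner errors summed over a member's probes, came to 5.57 to 5.58 in arbitrary units. A summed signal below it could escape detection on every probe, although smaller signals, down to 1.41, were detected where 1 probe exceeded 3 of its own errors.

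With quantile normalization and the higher limit, miR-367-3p was at least 51.4-fold lower in KPC-exosomes (log2 -5.69) and miR-302a-3p at least 21.7-fold (log2 -4.44). The same limit gave at least 8.20-fold for miR-302c-3p (log2 -3.04), 5.60-fold for miR-302b-3p (log2 -2.48) and 5.01-fold for miR-302d-3p (log2 -2.32). Against the lower limit the quantile-normalized differences were 123-fold for miR-367-3p (log2 -6.95), 52.0-fold for miR-302a-3p (log2 -5.70), 19.6-fold for miR-302c-3p (log2 -4.30), 13.4-fold for miR-302b-3p (log2 -3.74) and 12.0-fold for miR-302d-3p (log2 -3.58). The size of the decrease thus depended on the limit by more than 2-fold for each member. These values follow the signal in MPDC-exosomes, since the limits in KPC-exosomes were nearly the same for each member, so their order does not show an order of the true differences.

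Without normalization the higher limit gave at least 171-fold for miR-367-3p, 83.0-fold for miR-302a-3p, 31.0-fold for miR-302c-3p, 21.0-fold for miR-302b-3p and 18.5-fold for miR-302d-3p. Against the lower limit the values were 677-fold, 329-fold, 123-fold, 83.2-fold and 73.4-fold, in the same order. The members' median log2 bound was -4.30 with quantile normalization, where the median of all miRNAs with a value was 0.30, and -6.94 without normalization, where it was -1.60. All 5 members were at least 2-fold lower on both scales and against both limits. Against the lower limit, so were 24.6% of the 1077 miRNAs detected on at least 1 array with quantile normalization and 64.8% without. Against the higher limit, 228 of the 1077 were, with quantile normalization. Read against the 64.8%, a 2-fold decrease without normalization was common on these arrays.

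**Figure D2:**
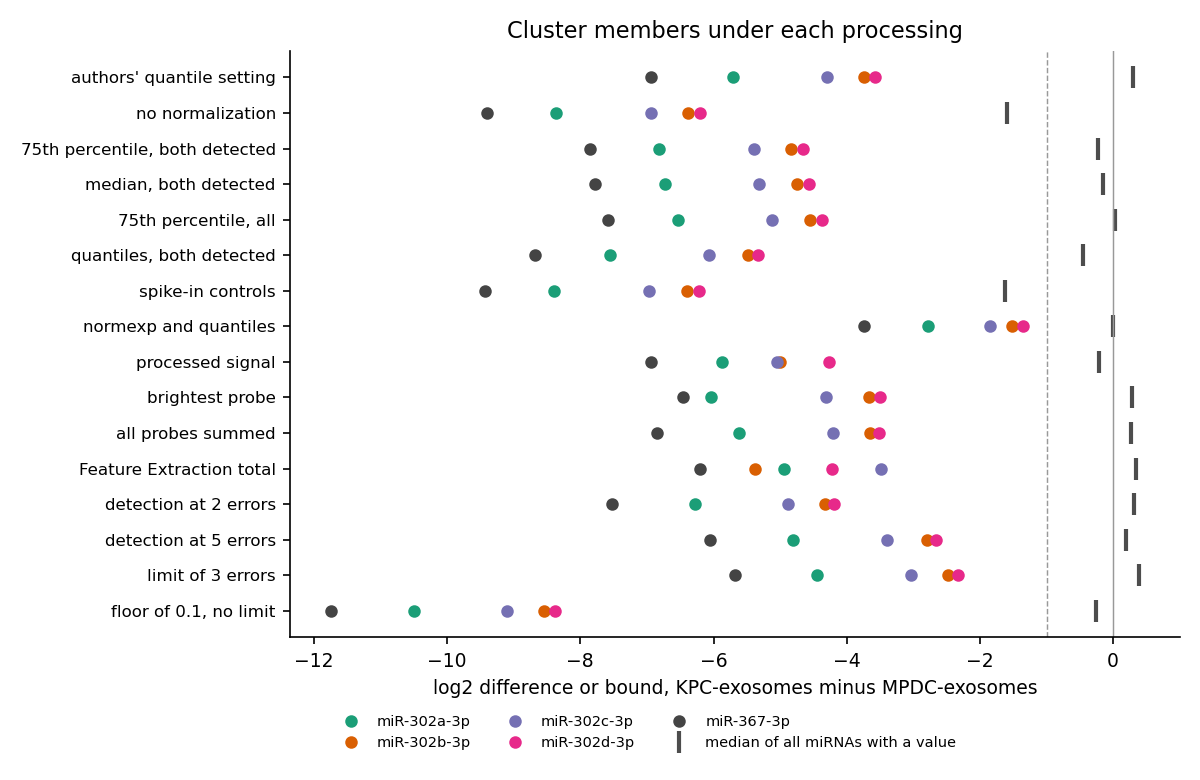
Members under each processing. Each row is a processing of the same arrays, and the x axis gives the log2 difference or bound, KPC-exosomes minus MPDC-exosomes. Coloured points are the 5 members, the dark tick is the median of all miRNAs with a value, and the dashed line marks a 2-fold decrease. In every row all members lie below the dashed line and below the tick, with member values from -1.36 to -11.75.

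The probes and their spots show what lies behind these sums. The 5 members had 14 probes, each printed 7 to 15 times, or 150 spots per array. In MPDC-exosomes 12 probes were detected and in KPC-exosomes none. The scanner software marked 131 of the 150 spots as well above background in MPDC-exosomes and 0 in KPC-exosomes. It marked 144 and 23 as positive and significant, a weaker criterion. Over the 12 detected probes the lowest spot in MPDC-exosomes stood at 14.5 (processed signal, arbitrary units). The highest spot of any member in KPC-exosomes stood at 11.3. The members were chosen with these signals known, so these spot counts and this gap restate that choice. Neither the counts nor the gap was set against all probes of the array, so how common they are there is not known.

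For miR-302a-3p, the 15 spots of the 20-base probe ranged from 1254 to 1554 in MPDC-exosomes (median 1467) and from -4.40 to 11.3 in KPC-exosomes (median 0.705). For miR-367-3p, the 15 spots of the 21-base probe ranged from 1863 to 2181 in MPDC-exosomes (median 2064) and from -2.36 to 6.77 in KPC-exosomes (median 1.85). Every spot in MPDC-exosomes was therefore far above every spot in KPC-exosomes for these probes, which are the longest of their miRNAs. For miR-302c-3p, the 10 spots of the 20-base probe ranged from 622 to 779 in MPDC-exosomes (median 732) and from -2.58 to 5.91 in KPC-exosomes (median 1.34). For miR-302b-3p, the 7 spots of the 21-base probe ranged from 624 to 728 in MPDC-exosomes (median 681) and from -3.13 to 3.12 in KPC-exosomes (median -0.449). For miR-302d-3p, the 10 spots of the 19-base probe ranged from 294 to 437 in MPDC-exosomes (median 425) and from -3.58 to 1.16 in KPC-exosomes (median -0.313). Spots of a detected probe varied by 3.59% to 14.9% within the MPDC-exosome array (coefficient of variation), which is the scatter of printing and reading within an array.

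**Figure D3:**
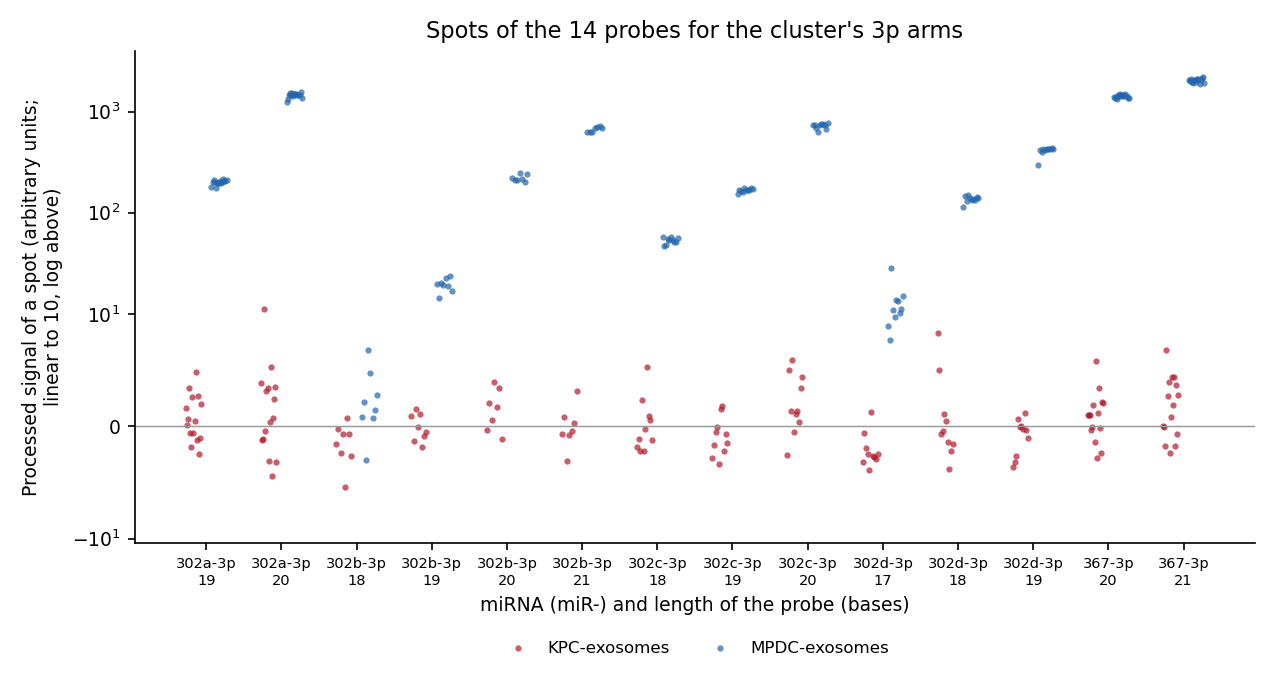
Spots of the member probes. The x axis gives the miRNA and the length of each of the 14 probes in bases, and the y axis the processed signal of each spot (arbitrary units, linear to 10 and log above). Spots in MPDC-exosomes (blue) lie above the spots of the same probe in KPC-exosomes (red) for every probe but the 18-base probe of miR-302b-3p, and within each miRNA the longer probes stand higher in MPDC-exosomes. The members were chosen with these signals known, and the share of such probes over the array was not taken.

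Agilent probes of different length for a miRNA differ in how firmly they hold it, and in MPDC-exosomes the longest probe gave most of each member's sum. Its share was 88.0% for miR-302a-3p, 76.4% for miR-302c-3p, 75.3% for miR-302d-3p, 73.3% for miR-302b-3p and 58.9% for miR-367-3p. Over the 1006 miRNAs with more than 1 probe whose longest was detected, the median share was 60.4%, with quartiles of 49.3% and 79.4%, so 4 of the 5 members lay between these quartiles and miR-302a-3p above them. The signals near the detection threshold were those of short probes. The 19-base probe of miR-302b-3p was just inside it at 4.73 errors, and the 17-base probe of miR-302d-3p just outside at 2.95 errors. The spots of that undetected probe nevertheless ranged from 7.66 to 28.4 in MPDC-exosomes, against a highest value of 1.28 in KPC-exosomes. The 18-base probe of miR-302b-3p, at 0.443 errors, had spots that overlapped between the arrays.

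The 5p arms, the other strands of the same hairpins, are usually the minor product. In MPDC-exosomes miR-302a-5p was detected with 2 of 4 probes at 6.0 ± 0.812, and miR-302d-5p with 1 of 3 probes at 3.12 ± 0.734 (scanner error, arbitrary units). The arms miR-302b-5p, miR-302c-5p and miR-367-5p were not detected on either array, and no 5p arm was detected in KPC-exosomes. The signals of the detected 5p arms were so low that quantile normalization left no bound for them. Without normalization miR-302a-5p was 4.27-fold lower and miR-302d-5p 2.22-fold lower against the lower limit, but against the higher limit miR-302a-5p was at least 1.08-fold lower and miR-302d-5p had no bound. In miR-302d-5p, 1 spot of the detected probe stood at 75.8 where the median was 16.7. A decrease of the 5p arms in KPC-exosomes was therefore hardly measurable at these signals.

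The miRNAs that share the seed letters of the miR-302 members were also lower in KPC-exosomes. In MPDC-exosomes miR-291a-3p gave 65544, miR-294-3p 73780 and miR-295-3p 73450 (summed signal, arbitrary units), against 87.5, 82.4 and 85.9 in KPC-exosomes. Unlike the miR-302 members, all 3 were detected on both arrays. Their log2 differences with quantile normalization were -7.51, -7.89 and -7.67, and without normalization -9.55, -9.81 and -9.74. The 3 are thus measured differences and the miR-302 values bounds, so their sizes cannot be ordered.

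Probes of miR-302 members shared runs of up to 10 bases with the probes of miR-291a-3p, the longest of these in the 21-base probe of miR-302b-3p. The 18-base probes of miR-302b-3p, miR-302c-3p and miR-302d-3p each share 7 bases with them. In MPDC-exosomes these 18-base probes stood at 0.443, 8.26 and 9.67 errors, so the first was not detected and the others were. Their longest runs with any probe outside the cluster were 8, 9 and 9 bases, so they are not alike in shared bases. That of miR-302d-3p was with miR-292a-3p, which gave a summed signal of 135570 in MPDC-exosomes. The part of such shared bases in the miR-302 signals was not tested.

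The seed group of miR-367-3p was mixed. Within it miR-363-3p, from the miR-106a to miR-363 cluster, was not detected in KPC-exosomes and gave 3659 in MPDC-exosomes, at least 182-fold lower with quantile normalization and the higher limit (log2 -7.50), and 435-fold against the lower limit (log2 -8.77). For miR-32-5p, 1.49 ± 0.460 in KPC-exosomes stood against a signal of 72.5 in MPDC-exosomes, a log2 difference of -3.04 with quantile normalization. That KPC-exosome signal was close to the lowest detected on the array, 1.41, so the size of this difference is uncertain. These 2 were at least 2-fold lower in KPC-exosomes on both scales, as miR-367-3p was. For miR-25-3p, of the miR-106b to miR-25 cluster, the signals were 1674 and 10575, and the log2 difference was -0.85 with quantile normalization and -2.66 without. For miR-92a-3p, of the widely expressed miR-17 to miR-92a cluster, they were 2981 and 21114, with log2 differences of -0.75 and -2.82. For miR-92b-3p they were 15.7 and 12.2, with log2 differences of 4.72 and 0.37. Quantile normalization strongly lowered MPDC-exosome signals of this size. On that array 14.75 (miR-200a-5p) became log2 0.28, while 14.82 (miR-1199-5p) became log2 2.19. The value of 4.72 therefore does not show a difference of that size.

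Of the 5 other miRNAs with this seed, 2 were at least 2-fold lower with quantile normalization and 1 higher, miR-92b-3p with the limit just given (median log2 -0.85). Without normalization 4 were lower and 0 higher (median -2.82). Over all miRNAs detected on at least 1 array the shares lower were 24.6% and 64.8%, so a count of 4 of 5 without normalization is near that of the array. The 21-base probe of miR-367-3p can pair with 9 bases in a row of miR-25-3p and of miR-92a-3p. In KPC-exosomes, where these 2 miRNAs stood at 1674 and 2981, that probe was at 0.502 of its scanner error. In MPDC-exosomes the 2 miRNAs stood higher, at 10575 and 21114, and their part in the miR-367-3p signal was not tested.

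**Figure D4:**
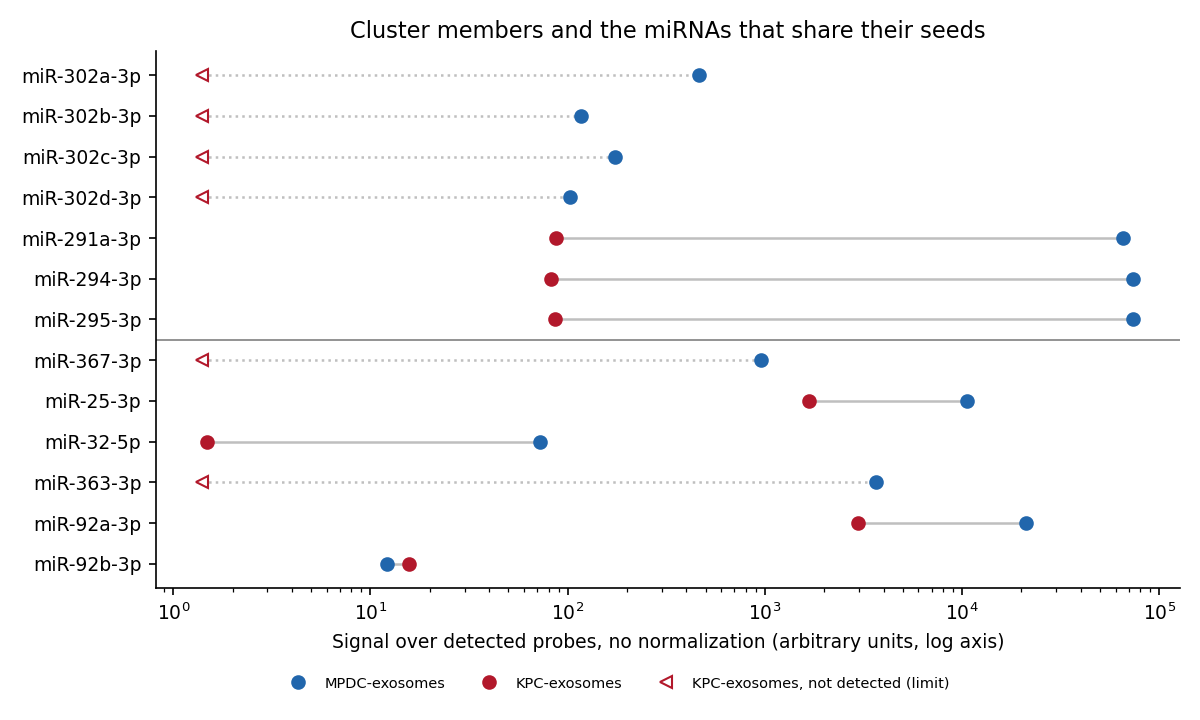
Members and the miRNAs that share their seeds. The x axis gives the summed signal of detected probes without normalization (arbitrary units, log axis) in MPDC-exosomes (blue) and KPC-exosomes (red), and open triangles mark the limit of 1.41 where a miRNA was not detected in KPC-exosomes. Above the line, miR-291a-3p, miR-294-3p and miR-295-3p stand between 82.4 and 87.5 in KPC-exosomes and between 65544 and 73780 in MPDC-exosomes, while below it miR-92b-3p is the exception with similar signals on both arrays.

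The 5 miRNAs outside the cluster and its seed groups whose unnormalized bound was nearest to the members' median, over 2 arrays, were miR-466m-3p (log2 bound -6.92), miR-293-5p (-6.83), miR-669h-3p (-7.16), miR-7684-3p (-7.17) and miR-335-5p (-6.71). With 2 arrays, such likeness says only that a miRNA was about as bright in MPDC-exosomes and not detected in KPC-exosomes.

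Lists of miRNAs that mark other cells were set beside the cluster. The list for pluripotent cells holds, besides the 5 members, miR-290a-3p, miR-291a-3p, miR-292a-3p, miR-293-3p, miR-294-3p and miR-295-3p. These 6 were detected on both arrays, with a summed signal of 657 in KPC-exosomes and 482481 in MPDC-exosomes. All 6 were at least 2-fold lower in KPC-exosomes on both scales, with a median log2 difference of -7.73 with quantile normalization. The 8 let-7 miRNAs, which rise as cells differentiate, summed to 16714 in KPC-exosomes and 4416 in MPDC-exosomes. With quantile normalization 8 of 8 were at least 2-fold higher in KPC-exosomes (median log2 3.04), and without normalization 5 of 8 (median 1.51). Over all miRNAs detected on at least 1 array, 31.5% and 10.1% were at least 2-fold higher, and 24.6% and 64.8% at least 2-fold lower.

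The labelled origin of the cells was checked against epithelial and pancreatic miRNAs. All 7 miRNAs of the epithelial list, among them miR-200c-3p, were detected in MPDC-exosomes and 5 in KPC-exosomes, with summed signals of 1781 and 98.8, and miR-200c-3p alone gave 991 of the 1781. With quantile normalization 4 of the 7 were at least 2-fold lower in KPC-exosomes and 0 higher (median log2 -1.47). Without normalization 7 of 7 were lower (median -3.53). The shares lower over all miRNAs detected on at least 1 array were 24.6% and 64.8%, with medians of 0.30 and -1.60. Of the 5 miRNAs of the pancreas list, miR-216a-5p, miR-216b-5p and miR-375-3p were not detected on either array, miR-217-5p had a signal of 60.9 in KPC-exosomes and was not detected in MPDC-exosomes, and miR-148a-3p, at 1190 in MPDC-exosomes, was not detected in KPC-exosomes. The 5 mesenchymal miRNAs were detected in MPDC-exosomes only, with a summed signal of 226. Of all miRNAs detected in MPDC-exosomes, 29.6% were not detected in KPC-exosomes. The mesenchymal median log2 difference was -1.21 over the 4 with a value under quantile normalization, and -3.55 over all 5 without normalization. Of the 7 blood cell miRNAs, 5 were detected on each array, with summed signals of 721 in KPC-exosomes and 604 in MPDC-exosomes. Their direction depended on the scale. With quantile normalization 1 was at least 2-fold lower and 3 higher (median log2 1.17). Without normalization 3 were lower and 3 higher (median -0.58). The shares higher over all miRNAs detected on at least 1 array were 31.5% and 10.1%. These lists moved between the same 2 arrays as the cluster did, and the part of any cell type in the cluster's signals was not tested.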

How the data were processed

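The authors deposited Agilent Feature Extraction scanner files (10.7.1.1 in the file headers, 9.1 in the submitters' processing notes), whose background-subtracted signals and errors are intensities, and log2 values per miRNA normalized between arrays in GeneSpring. Samples were grouped by their labels. The members and lists were chosen with earlier results of these data known.

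From the scanner files, total signals of probes above 3 errors were summed per miRNA with a floor of 0.1, transformed to log2 and quantile normalized together with 21 control features. This came within 1.11e-05 of every deposited log2 value. Quantile normalization removes any difference in total miRNA amount. Where an array did not detect a miRNA, its limit was the higher of the lowest detected signal there and the miRNA's own signal over all probes; a higher limit, 3 errors summed over its probes, is given beside it. With 1 array per group no test was possible. Precision is limited by the number of arrays.

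Named miRNAs were the members, the 5p arms, those sharing bases 2 to 8 with a member, the 5 detected in MPDC-exosomes only with the unnormalized bound nearest to the members' median, and members of reported lists. The 17 alternatives covered scaling, background correction, summing, detection and limits. The steps were tested on simulated data. Changes placed in both directions were recovered. When all changes were placed in 1 direction, a design that quantile normalization does not assume, it made the differences smaller and called unchanged miRNAs higher; without normalization they were recovered. The balanced simulation was added after the one-directional one had missed the recovery first required. Python 3.11.15, numpy 2.4.6, pandas 2.3.3, matplotlib 3.10.9, R 4.3.3 and limma 3.58.1 were used.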

Additional observations from a re-analysis of the deposited data

How the results depend on the processing

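All 5 members were at least 2-fold lower in KPC-exosomes under the reported processing and all 17 alternatives, but the bounds moved. Over all miRNAs, 265 of 1077 were called lower as reported. That number ranged from 151 with the 4-fold threshold and 159 with normexp to 706 with spike-in scaling. The members were chosen with their signals known, so their unchanged count in part restates that choice. The members' median log2 bound of -4.30 became -6.94 without normalization, -6.97 with spike-in scaling, -5.40 and -5.31 when arrays were scaled on miRNAs detected on both, by their 75th percentile and by their median, -5.12 with the 75th percentile of all miRNAs and -6.07 with quantiles over those detected on both. It was -1.85 with normexp (offset 50), -5.05 with the processed signal, -4.94 with the per-miRNA total of Feature Extraction, -4.88 and -3.40 with detection at 2 and 5 scanner errors, -3.04 with a limit of 3 summed errors and -9.10 with the floor of 0.1 in place of a limit, which is no bound. Of 85 single values, 66 moved by more than the scanner error and 19 did not, all lower in KPC-exosomes. The 19 include the values under a 4-fold threshold and under the deposited values. Neither of these alternatives could move a difference, since the first changes only the call and the second repeats the reported scale. The 5p arms at least 2-fold lower numbered 0 as reported. They numbered 2 without normalization, with spike-in scaling, with the Feature Extraction total and with the floor. With quantiles over miRNAs detected on both arrays the number was 1. The Feature Extraction totals of miR-302a-5p, miR-302d-5p, miR-302b-3p and miR-302d-3p equal sums that take in other arms, as given below. The results under that total therefore do not rest on each arm's own signal. No paired analysis was possible because each group has 1 array. For the same reason no array could be left out. A member's summed signal under about 5.6 in KPC-exosomes, 3 summed errors, could escape detection on every probe.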

Other observations

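The per-miRNA total in the Feature Extraction output for the MPDC-exosome array differed from the sum over detected probes for 4 arms of the cluster. For miR-302b-3p it was 586, where the probes summed to 117, and 586 is also the sum of miR-302a-3p, miR-302a-5p and miR-302b-3p. For miR-302a-5p it was 469 where the probes summed to 6.0, which equals miR-302a-3p and miR-302a-5p together. For miR-302d-3p it was 276 where the probes summed to 103, and for miR-302d-5p it was 279 where they summed to 3.12; these equal the sums of miR-302c-3p and miR-302d-3p, without and with miR-302d-5p. For miR-302a-3p, miR-302c-3p and miR-367-3p both values were the same.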
